A study of Mus musculus with 20 samples.

Results

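Expression of 10 genes of the ATF4 stress response was compared between mouse kidney tumors and normal kidneys. The genes, Atf4, Atf5, Atf3, Ddit3, Trib3, Asns, Slc7a5, Slc3a2, Chac1 and Gdf15, were looked up by symbol in the raw gene count table, and all 10 were found among its 54532 genes on mm10 and passed the filter on low counts. They are named by symbol, though they were chosen with earlier results of these data known.

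ATF4 is the transcription factor at the end of the integrated stress response. In that pathway, kinases that sense amino acid shortage, misfolded protein in the endoplasmic reticulum, heme deficiency or double-stranded RNA phosphorylate the translation factor eIF2α. General translation then falls, while upstream reading frames in the Atf4 transcript let its protein be made, so the level of Atf4 RNA need not follow the level of ATF4 protein. ATF4 binds composite C/EBP-ATF elements, often with a C/EBP partner, and drives genes for amino acid uptake and synthesis, redox balance and, when the stress persists, cell death. Several of its genes, Atf3 and Gdf15 among them, are known to respond to injury of the kidney tubules.

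The animals were LSL-Cas9/+; Pax8 Cre/+ mice on a C57BL/6 background, in which the Pax8 promoter drives Cre, and so Cas9, in Pax8-expressing cells such as those of the kidney tubules. An adeno-associated virus (AAV) with guides against Vhl, Pbrm1, Keap1 and Tsc1 had been injected into their kidneys. Bulk RNA of 10 tumors, each from a different mouse, was set against bulk RNA of 10 normal kidney regions of those mice. The normal kidneys thus carry the same alleles and come from injected animals, and the age and sex of single animals are not in the labels. Samples are named here as normal kidney 1 to 10 and tumor 1 to 10 after their titles, and no source says that a shared number marks a shared mouse.

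The libraries held between 14737516 and 26679704 counts. Of the targeted genes, Vhl (log2 fold change -0.49, adjusted p = 0.00179) and Tsc1 (-0.61, adjusted p = 0.00871) were lower in tumors, Pbrm1 did not pass the test (-0.28, adjusted p = 0.23) and Keap1 was higher (0.83, adjusted p = 1.3e-07). RNA levels do not measure editing, since an edited gene can still be transcribed.

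Some libraries stood apart, and they bear on most of the genes below. The summed level of 8 tubule injury markers, in CPM (counts scaled to library size), was 3222 to 10020 in normal kidneys 5, 7 and 8, 388.7 to 799.2 in the other 7 normal kidneys and 418.3 to 2406 in the tumors. Lcn2, which encodes the injury marker NGAL, was at 2538, 3302 and 1765 CPM in normal kidneys 5, 7 and 8 and at no more than 232.3 CPM in any other library. The summed level of 10 proximal tubule markers was 1935 to 3698 CPM in those 3 kidneys and 6716 to 12560 CPM in the other 7. Normal kidney 9 had 27.3% of its counts on genes of at least 4 kb, against 44.3% or more in every other normal kidney, and the highest macrophage marker sum of its group (715.9 CPM). Tumor 7 had 8035 CPM of fibroblast markers, against at most 606.7 CPM in any other tumor, and 1386 CPM of proximal tubule markers, the least of its group. Results are therefore given with all 20 libraries and without normal kidneys 5, 7 and 8. That exclusion was chosen after the data were seen and on markers measured in the same RNA, so it is a second view of the data and not an independent test.

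The promoters were searched for a written form of the element that ATF4 binds. The composite C/EBP-ATF element, written TGATGNAA and searched on both strands from 250 bases before to 50 bases after each RefSeq start on GRCm38.p6, occurred in the promoters of 4 of 9 members: Asns, Trib3, Chac1 and Atf3. Of all 27025 genes with a promoter entry, 4.51% held it. By promoter, it was in 4 of 11 windows of the members and in 3.97% of all 32851. The members were picked as Atf4 and known targets of this response, so a share above that of all genes comes with the choice. The windows of Atf4, Atf5, Ddit3, Slc3a2 and Gdf15 did not hold these letters, and Slc7a5 had no entry. Elements of another spelling or outside the window were not searched for, so these genes may still carry one. The 4 sites are printed 5′ to 3′ on the strand of the gene, with the element, or its reverse complement, in capitals. They show that the match lies within 23 bases of the start in Asns and Trib3, where the printed run overlaps an annotated exon, and further upstream in Chac1 and Atf3. The Atf3 start used is an internal one of its gene model.
Asns, chr6:7693215-7693242, minus strand, first base at -23: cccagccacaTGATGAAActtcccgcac
Trib3, chr2:152344029-152344056, minus strand, first base at 15: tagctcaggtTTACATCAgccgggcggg
Chac1, chr2:119351013-119351092, plus strand, first base at -193: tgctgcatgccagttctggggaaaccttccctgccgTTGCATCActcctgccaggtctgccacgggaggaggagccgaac
Atf3, chr1:191183400-191183479, minus strand, first base at -110: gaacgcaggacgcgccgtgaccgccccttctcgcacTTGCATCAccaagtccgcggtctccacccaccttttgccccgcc

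With all 20 libraries, 4 of the 10 genes rose in tumors at an adjusted p under 0.05 and none fell. The risers were Ddit3, Atf5, Trib3 and Atf3. Over all 15354 genes tested, 47.5% were called, 23.6% higher and 23.8% lower, so a count of 4 of 10 stands beside a large background. The study's limits of a log2 fold change over 1 and a p under 0.001, read here as an unadjusted p, were met by Ddit3, Atf5 and Trib3, against 8.85% of all genes; 10.2% of all genes met the same limits downward, and no member did. None of the 10 genes had every tumor above every normal kidney, which held for 5.87% of all genes, and none had every tumor below every kidney, which held for 4.74%. In bulk tissue, fewer cells of a type and less RNA per cell cannot be told apart.

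**Figure D1:**
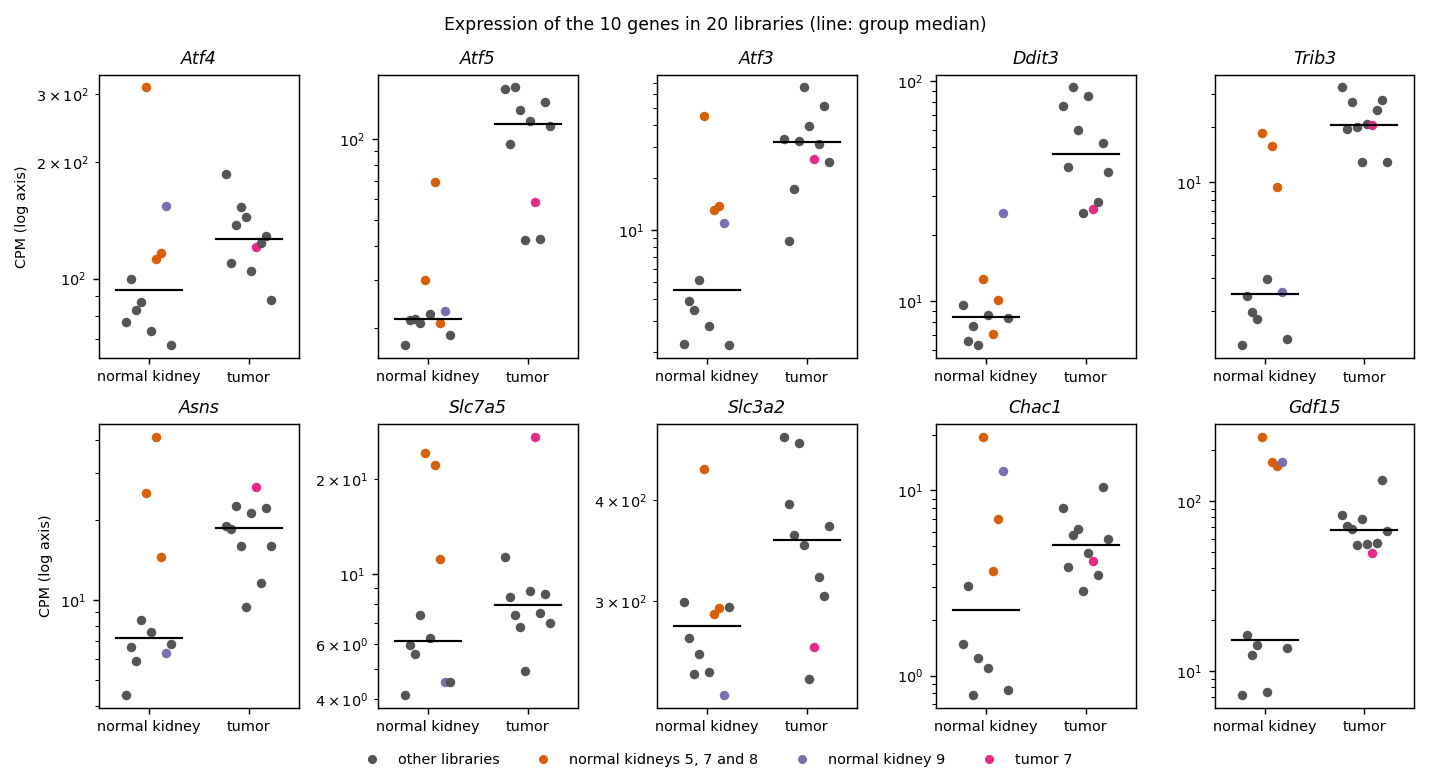
CPM of each of the 10 genes (log axes) in 10 normal kidneys and 10 tumors, 1 point a library, with a line at the group median. Normal kidneys 5, 7 and 8 lie above the other 7 kidneys for Trib3, Asns, Slc7a5 and Atf3, while Ddit3 in them (7.12 to 12.6 CPM) lies below every tumor.

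Atf4 (chromosome 15, 80255184 to 80257541, plus strand) itself, the central factor of the pathway, ranged from 67.4 to 311.8 CPM in normal kidneys with a median of 93.2. In tumors it ranged from 88.1 to 185.9 CPM with a median of 126.2. The highest single value belonged to normal kidney 5, and no tumor lay above every kidney, though 9 of 10 tumors lay above the median kidney. The fitted log2 fold change was 0.13 ± 0.236 (SE, adjusted p = 0.668), with a 95% interval of -0.36 to 0.62, so a modest change in either direction was not detectable. Without normal kidney 5 alone, it was 0.42 (adjusted p = 0.0326), and without normal kidneys 5, 7 and 8 it was 0.51 ± 0.172 (adjusted p = 0.0196).

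Atf5 (chromosome 7, 44812256 to 44816658, minus strand), a relative of Atf4 that is also controlled by upstream reading frames and is linked to mitochondrial stress, showed a wider gap. Its normal kidney values ran from 17.3 to 69.5 CPM with a median of 21.5, and its tumor values from 42.4 to 155.1 CPM with a median of 113.8. Only normal kidney 7 reached above the lowest tumor, and 7 of 10 tumors lay above every kidney. Atf5 rose by a log2 fold change of 1.97 ± 0.289 (adjusted p = 9.83e-06). Atf5 shares 571 bases of sequence with Nup62 and 272 with Il4i1 on the opposite strand. Nup62 rose less (0.60, adjusted p = 0.00191), Il4i1 held 25 counts over all libraries, and whether the counting used strand is not given in the sources used here.

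The ratio of Atf5 to Atf4 within a library, in counts per kilobase, is free of library scaling. Its mean log2 value was -1.88 ± 0.701 (SD, n = 10) in normal kidneys and -0.19 ± 0.750 (SD, n = 10) in tumors. The difference of 1.69 was larger than the spread between libraries (2-sided permutation test with 100000 resamples, p = 0.0002, adjusted over 2 ratios p = 0.0004), and 7 of 10 tumors lay above every kidney. Without normal kidneys 5, 7 and 8 the difference was 1.66. The permutation test, here and for the other ratio below, treated the 20 libraries as independent.

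Ddit3 (chromosome 10, 127290774 to 127296288, plus strand) encodes CHOP, the factor associated with the death-promoting arm of the stress response. It ranged from 6.32 to 25.2 CPM in normal kidneys with a median of 8.50, and from 25.0 to 93.5 CPM in tumors with a median of 46.6. Normal kidney 9 was the single kidney that reached the tumor range, so 9 of 10 tumors lay above every kidney. Ddit3 rose by a log2 fold change of 2.37 ± 0.298 (adjusted p = 1.3e-06). Normal kidneys 5, 7 and 8 were at 12.6, 7.12 and 10.1 CPM, and leaving them out gave 2.35 ± 0.358. Ddit3 was thus the member whose rise moved least with these 3 kidneys. Leaving out normal kidney 9 gave 2.61. Ddit3 shares 68 bases with Mars, the methionyl-tRNA synthetase gene on the opposite strand, which rose less (0.52, adjusted p = 0.000611).

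The tumors were not uniform in these factors. Tumors 5, 7 and 8 had the lowest Ddit3 (25.0, 26.2 and 28.3 CPM) and also the lowest Atf5 (42.4, 58.2 and 42.7 CPM). Tumor 5 had at the same time the highest Atf3 of all libraries (65.9 CPM), so the factors did not rank the tumors alike.

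Atf3 (chromosome 1, 191170296 to 191218039, minus strand), an early stress factor that binds with other AP-1 and C/EBP proteins, ranged from 2.19 to 45.2 CPM in normal kidneys with a median of 4.53. In tumors it ranged from 8.66 to 65.9 CPM with a median of 31.9. Normal kidney 5 lay within the upper tumor range and normal kidneys 7, 8 and 9 just above the lowest tumor. Only 2 tumors lay above every kidney, but all 10 lay above the median kidney. Atf3 rose by a log2 fold change of 1.69 ± 0.510 (adjusted p = 0.0097), and by 2.92 ± 0.415 (adjusted p = 1.13e-05) without normal kidneys 5, 7 and 8.

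Trib3 (chromosome 2, 152337422 to 152344032, minus strand) encodes a pseudokinase that is induced by ATF4 and CHOP and feeds back on both. In 7 normal kidneys it lay between 1.30 and 2.99 CPM, and in normal kidneys 5, 7 and 8 it was at 18.5, 15.7 and 9.42 CPM. The tumors ran from 12.8 to 32.7 CPM with a median of 20.5, so those 3 kidneys reached into or near the tumor range while every other kidney was far below it. Trib3 rose by a log2 fold change of 1.91 ± 0.470 (adjusted p = 0.00212) with all libraries and by 3.42 ± 0.242 (adjusted p = 1.77e-09) without the 3 kidneys.

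Asns (chromosome 6, 7675169 to 7693254, minus strand), which encodes asparagine synthetase, split the normal kidneys in the same way. It lay between 4.42 and 8.44 CPM in 7 kidneys and at 25.4, 41.1 and 14.5 CPM in normal kidneys 5, 7 and 8. Tumors lay between 9.41 and 26.7 CPM with a median of 18.8. With all libraries the log2 fold change was 0.52 ± 0.357 (adjusted p = 0.238), and without normal kidney 7 alone it was 0.94 (adjusted p = 0.0105). Without the 3 kidneys it was 1.48 ± 0.204 (adjusted p = 8.23e-06), and each tumor lay above each of the remaining kidneys.

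Slc7a5 and Slc3a2 encode the light chain (LAT1) and the heavy chain (4F2hc) of a carrier of large neutral amino acids such as leucine. Slc7a5 (chromosome 8, 121881150 to 121907694, minus strand) ranged from 4.13 to 24.3 CPM in normal kidneys with a median of 6.10, and from 4.93 to 27.2 CPM in tumors with a median of 7.98. The highest values belonged to tumor 7 and to normal kidneys 5 and 7, and the other 9 tumors reached no more than 11.3 CPM. The fitted log2 fold change was 0.03 ± 0.368 (adjusted p = 0.954), with a 95% interval of -0.73 to 0.80. It became 0.85 ± 0.299 (adjusted p = 0.0229) without normal kidneys 5, 7 and 8, and -0.40 ± 0.329 (adjusted p = 0.319) without normal kidney 9 and tumor 7.

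Slc3a2 (chromosome 19, 8706882 to 8723369, minus strand) was the most abundant of the 10 genes per length, at 81.0 ± 16.6 (SD, n = 10) CPM per kilobase in normal kidneys and 100.9 ± 22.4 (SD, n = 10) in tumors, against 2.59 ± 2.02 and 2.65 ± 1.71 for Slc7a5. Slc3a2 ranged from 229.4 to 437.4 CPM in normal kidneys and from 239.6 to 479.5 CPM in tumors, and 2 of 10 tumors lay above every kidney. Its log2 fold change was 0.32 ± 0.140 (adjusted p = 0.0681), and 0.44 ± 0.135 (adjusted p = 0.0104) without normal kidneys 5, 7 and 8. The log2 ratio of Slc7a5 to Slc3a2 was -5.26 ± 0.784 (SD, n = 10) in normal kidneys and -5.39 ± 0.831 (SD, n = 10) in tumors, a difference of -0.13 that was smaller than the spread between libraries (2-sided permutation test with 100000 resamples, p = 0.72). Tumor 7 had the highest ratio of all libraries (-3.34).

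**Figure D2:**
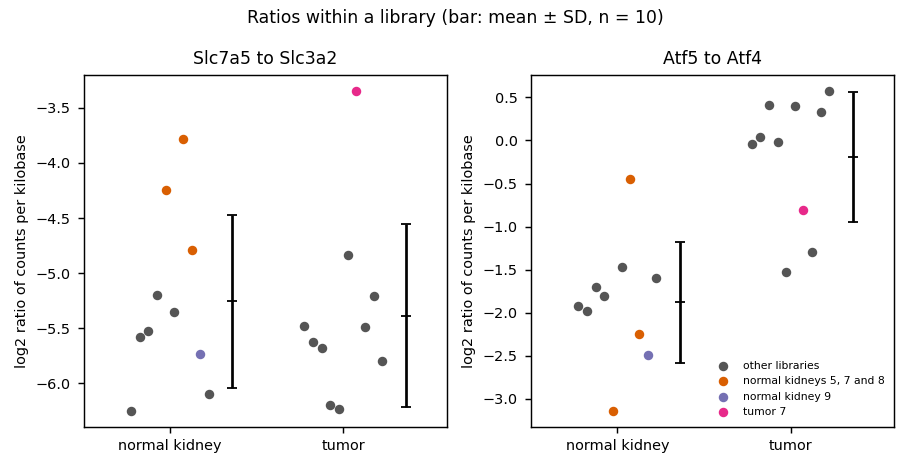
Log2 ratios of counts per kilobase within each library for Slc7a5 to Slc3a2 and Atf5 to Atf4, 1 point a library, with the group mean and SD (n = 10). The Atf5 to Atf4 ratio lies above every kidney in 7 of 10 tumors, whereas the Slc7a5 to Slc3a2 ratios of the groups overlap, with tumor 7 at -3.34.

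Chac1 (chromosome 2, 119351229 to 119354381, plus strand) encodes an enzyme that degrades glutathione. It ranged from 0.79 to 19.4 CPM in normal kidneys with a median of 2.26, and from 2.88 to 10.4 CPM in tumors with a median of 5.05. Normal kidneys 5, 9 and 8 were the highest kidneys, at 19.4, 12.8 and 6.98 CPM, and no tumor lay above every kidney. The log2 fold change was 0.10 ± 0.524 (adjusted p = 0.893), and 0.87 ± 0.522 (adjusted p = 0.175) without normal kidneys 5, 7 and 8.

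Gdf15 (chromosome 8, 70629393 to 70632456, minus strand), a secreted stress hormone that lowers appetite through the receptor GFRAL, split the normal kidneys most widely. It was at 236.7, 168.3, 160.4 and 167.9 CPM in normal kidneys 5, 7, 8 and 9, and between 7.25 and 16.4 CPM in the other 6. The tumors lay between these levels, from 49.3 to 131.9 CPM with a median of 67.4. No tumor reached the 4 high kidneys, and each tumor was above the 6 low ones. The fitted log2 fold change was -0.17 ± 0.592 (adjusted p = 0.832), with a 95% interval of -1.40 to 1.06, while the median tumor was 4.41 times the median kidney. The mean CPM was lower in tumors (71.4 against 80.5), but the mean log2 CPM was higher (6.10 against 5.11). The sign thus depended on how the libraries were averaged. The fit gave 1.07 ± 0.569 (adjusted p = 0.125) without normal kidneys 5, 7 and 8.

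**Figure D3:**
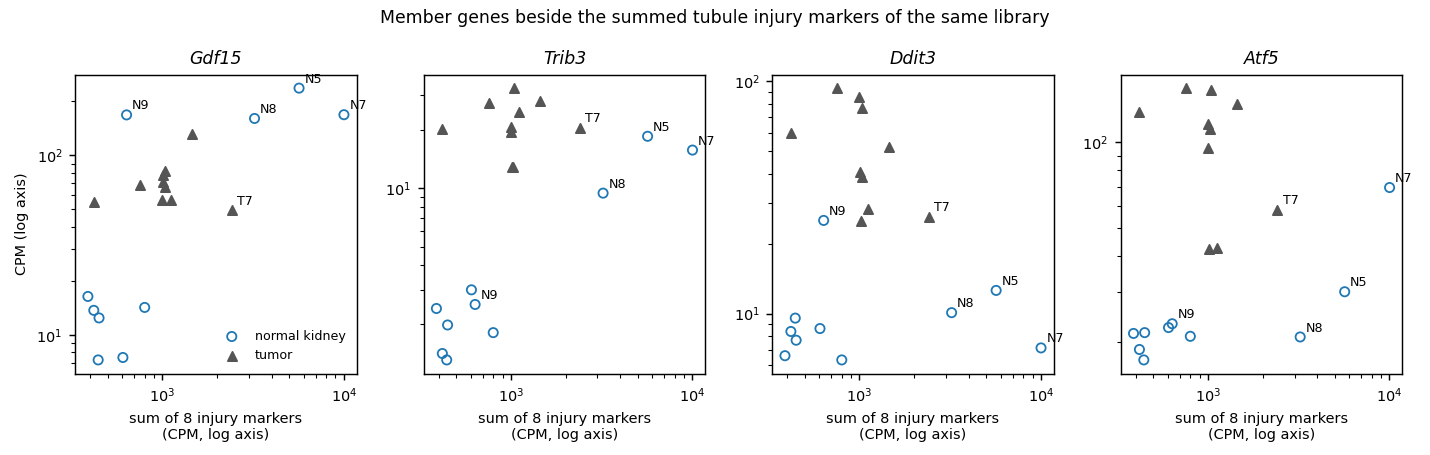
CPM of Gdf15, Trib3, Ddit3 and Atf5 (log axis) against the summed CPM of 8 tubule injury markers (log axis) in each library; open circles are normal kidneys, triangles are tumors, and libraries that stood apart are labelled N5, N7, N8, N9 and T7. Normal kidneys 5, 7 and 8, at 3222 to 10020 CPM of injury markers, are high in Gdf15 and Trib3, are below every tumor in Ddit3, and in Atf5 only N7 is high.

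In normal kidney 5, each of the 10 genes was among the 3 highest of its group, and 7 of them were the highest. Without normal kidneys 5, 7 and 8, 8 of the 10 genes were called higher, against 26.6% of all genes tested in that fit. Chac1 and Gdf15 were the 2 that were not. Asns, Trib3 and Atf5 then had every tumor above every kidney, against 11.9% of all genes. Normal kidney 9 was itself high in Gdf15, Chac1 and Ddit3 (167.9, 12.8 and 25.2 CPM), and had the highest mitochondrial share of counts (12.2%). These 3 genes are the shortest of the 10 (1852, 1637 and 1713 bases). Normal kidney 9 also had the low share of counts on long genes given above, whose part in these values was not tested. Normal kidney 9 and tumor 7 were then left out as well, also a choice made after the data were seen. All 10 genes were then called higher, against 31.4% of all genes, with Gdf15 at 2.62 ± 0.237 and Chac1 at 1.99 ± 0.348. Because normal kidney 9 was high in Gdf15, Chac1 and Ddit3, its removal by itself raises their fold changes. The same limit holds for leaving out normal kidneys 5, 7 and 8, which were among the 3 highest kidneys for 10, 6 and 7 of the 10 genes. Neither fit is therefore separate support for a rise. A limma-voom fit with quality weights keeps all 20 libraries and lowers the weight of those that vary most. It called all 10 higher, against 34.8% of all genes. Such weights can lower the part of kidneys in which members were high, so it is no separate support either. A fit with the sample number as a block called the same 4 as the fit without the block, against 25.9% of all genes. These fits give values beside the injury, macrophage and fibroblast marker levels, whose part in the results was not tested. Of the 8 injury markers, Vcam1, Krt19 and Cd44 were called higher in tumors and Lcn2 and Clu lower, with all 20 libraries. Havcr1, the gene of KIM-1, was at 102.4 to 586.0 CPM in tumors and at no more than 35.7 CPM in the 7 kidneys other than 5, 7 and 8. Krt20 was at 28.1 to 760.8 CPM in tumors and at no more than 4.53 CPM in those 7 kidneys, so both markers, like Asns, Trib3 and Atf5, separated the tumors from them. Of the 10 macrophage markers, 5 were called higher, with summed levels of 186.3 to 715.9 CPM in kidneys and 413.6 to 2322 CPM in tumors.

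**Figure D4:**
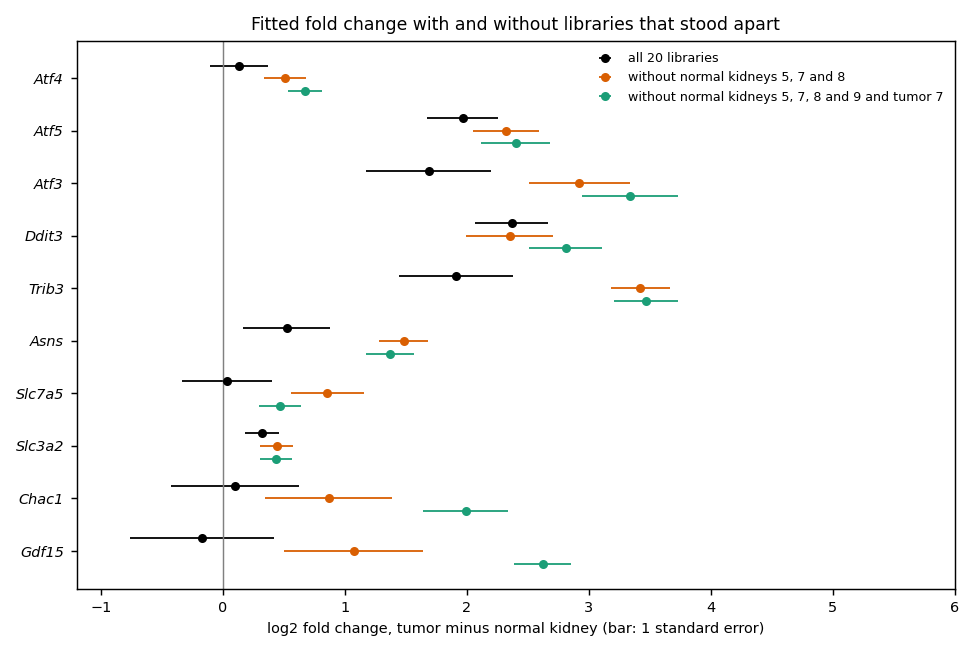
Fitted log2 fold change of tumors against normal kidneys for the 10 genes with 1 SE, from all 20 libraries, without normal kidneys 5, 7 and 8, and without normal kidneys 5, 7, 8 and 9 and tumor 7. Ddit3 stays between 2.35 and 2.81, while Gdf15 moves from -0.17 to 2.62.

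The identity of the tissue was checked in the other marker lists. Among tubule epithelium markers, Epcam fell from 145.4 to 1.88 CPM and Krt18 from 58.9 to 13.4 CPM, while Krt8 rose from 217.6 to 368.1 CPM. Pax8 (130.1 and 158.9 CPM in kidneys and tumors) and Cdh16 (807.0 and 788.7 CPM) did not pass the test. Of 10 proximal tubule markers, Gatm rose and Slc5a2, Aqp1 and Slc22a8 fell, and of 7 endothelial markers Cdh5 rose and Eng, Tek and Flt1 fell. The summed tubule epithelium markers ran from 959.1 to 1917 CPM in kidneys and from 895 to 1700 CPM in tumors. Endothelial markers summed to 412 to 647.5 CPM in kidneys and 287.9 to 886.2 CPM in tumors, and adipocyte markers to 150.9 to 787.6 CPM and 60.4 to 2182 CPM. T cell markers summed to at most 14.6 CPM and adrenal cortex markers to at most 10.5 CPM in any library, and the adrenal factor Nr5a1 was at 0 in all normal kidneys.

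Genes on either side of ATF4 in the pathway were described from written lists. Of the 183 genes tested in those lists, members excluded, 73 rose and 21 fell, with a median log2 fold change of 0.27 against -0.02 for all genes. Over all genes tested, 23.6% were called higher and 23.8% lower, and the counts of each list below stand beside these shares. With library totals or upper quartile factors the median of all genes was -0.14, and 38.5% or 39.2% of all calls were higher against 49.8% with the main scaling, so the small differences below depend on that choice.

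Upstream, 4 of 17 eIF2α kinases, phosphatase subunits and eIF2B subunits rose and 2 fell, a share of rises close to the 23.6% of all genes called higher. Impact, which restrains the amino acid sensor GCN2, rose from 23.9 ± 7.04 to 55.7 ± 11.8 CPM (SD, n = 10 each), or 1.22 on the log2 scale (adjusted p = 3.19e-06). Eif2ak2, the gene of the RNA-sensing kinase PKR, rose by 0.99 (adjusted p = 0.00015), with every tumor above every kidney. Eif2ak3, the gene of the endoplasmic reticulum kinase PERK, rose by 0.67 (adjusted p = 9.83e-05), and Eif2s1, eIF2α itself, by 0.32 (adjusted p = 0.0405), a call that was lost in 13 of the 20 fits that left out 1 library. Eif2ak4, the gene of GCN2, fell by 0.39 on the log2 scale (adjusted p = 0.00676), and so did Oma1, the gene of a mitochondrial stress protease (-0.39, adjusted p = 0.0284). The other 11 genes did not pass the test: Eif2ak1 (-0.04), Dele1 (-0.16), Gcn1l1 (0.12), Ppp1r15a (0.33), Ppp1r15b (-0.02), Ppp1ca (0.04) and the 5 eIF2B subunits, which lay between -0.10 and 0.19.

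Among 29 tested genes linked to ATF4 in stressed cells, 17 rose and 2 fell, with a median log2 fold change of 0.86. The list holds genes with other regulators too, such as Vegfa (0.66, adjusted p = 0.0162), which the study names as a HIF target. The part of the edited Vhl and Keap1 in these rises was not tested. Slc7a11, the cystine carrier that also answers to the KEAP1 partner NRF2, rose from 5.28 ± 9.79 to 174.5 ± 105.2 CPM, a log2 fold change of 5.02 (adjusted p = 6.18e-05). Pmaip1, which encodes the death factor NOXA, rose by 4.12 (adjusted p = 9.12e-11). Aldh18a1, the first enzyme of proline synthesis, rose by 3.77 (adjusted p = 5.71e-10). For each of these 3, every tumor was above every kidney. Phgdh, the first enzyme of serine synthesis, fell by 1.16 on the log2 scale (adjusted p = 0.00253). Slc38a2, a neutral amino acid carrier, was at -0.70 (adjusted p = 0.0411), and at -0.32 with no call when normal kidney 5 was left out. Its call was lost in 10 of the 20 fits that left out 1 library.

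Cytosolic aminoacyl-tRNA synthetases, which load amino acids onto tRNA, rose in 13 of 20 cases and fell in 2, with a median of 0.50. Sars rose by 1.01 (adjusted p = 6.53e-06), Cars by 0.90 (adjusted p = 2.81e-05) and Iars by 0.82 (adjusted p = 4.6e-05). Kars was at -0.35 (adjusted p = 0.0253) and Qars at -0.30 (adjusted p = 0.0483), and the call of Qars was lost in 14 of the 20 fits that left out 1 library.

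Enzymes of amino acid synthesis divided, with 8 of 21 up and 5 down and a median of 0.29. The 21 include the member Asns, which was not called. Besides Aldh18a1, the mitochondrial folate enzymes Aldh1l2 (2.74, adjusted p = 6.24e-05) and Mthfd1l (2.20, adjusted p = 0.000529) rose most. Cbs, the first step from homocysteine to cysteine, fell from 81.2 ± 56.4 to 1.65 ± 1.86 CPM, and each tumor was below each kidney (-5.61, adjusted p = 2.95e-07). The cytosolic folate enzyme Shmt1 fell by 1.73 on the log2 scale (adjusted p = 0.000167).

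The amino acid carriers likewise showed no single direction. Of 17, 6 rose and 2 fell, with a median of -0.08. Slc1a4, a carrier of alanine, serine and cysteine, rose by 1.94 (adjusted p = 8.48e-08), and Slc7a3, a cationic amino acid carrier, by 1.46 (adjusted p = 0.00653) from 0.47 to 1.34 CPM. Slc38a1 fell by 1.85 on the log2 scale (adjusted p = 5.4e-05). Among the light chains that pair with Slc3a2, Slc7a11 rose as given above and Slc7a8 rose by 0.76 (adjusted p = 0.0266), a call lost without normal kidneys 5, 7 and 8, while Slc7a6 (-0.11, adjusted p = 0.811) and Slc7a7 (0.24, adjusted p = 0.595) did not pass the test.

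Of 23 genes of endoplasmic reticulum chaperones and the unfolded protein response, 12 rose and 1 fell, with a median of 0.37. Sel1l (0.85, adjusted p = 1.55e-05), a part of the machinery that removes misfolded protein, rose most, followed by Sdf2l1 (0.83, adjusted p = 0.00452) and the sensor Atf6 (0.80, adjusted p = 0.000196). Xbp1, which encodes another factor of the response, was lower (-0.73, adjusted p = 0.0318), and its call was lost in 5 of the 20 fits that left out 1 library. Of 12 genes on the list of mitochondrial chaperones and proteases, 3 rose and 5 fell, a share of rises close to that of all genes. Of the 3 that rose, 1 was Atf5, which is itself a member and a transcription factor. The other 2 were the proteases Spg7 (0.88, adjusted p = 6.97e-05) and Lonp1 (0.75, adjusted p = 8.49e-05), while Hspe1 (-0.68, adjusted p = 0.0157), Trap1 (-0.58, adjusted p = 0.00233) and Clpp (-0.54, adjusted p = 0.022) fell. The share of counts on genes of the mitochondrial genome was 7.12% to 12.2% in kidneys and 2.09% to 4.93% in tumors, and its part in these results was not tested.

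Genes of C/EBP, CREB/ATF and AP-1 factors rose in 7 of 30 cases and fell in 2, with a median of 0.23, and this share of rises too was close to the 23.6% of all genes. Fosl2 (1.47, adjusted p = 0.00128), Atf6 and Jun (0.78, adjusted p = 0.0408) led the rises, and Nfe2l2, the gene of NRF2, fell by 0.79 on the log2 scale (adjusted p = 0.000282), as did Creb1 (-0.42, adjusted p = 0.0315). The calls of Jun and Creb1 were lost in 13 and 7 of the 20 fits that left out 1 library. The ATF4 partners Cebpb (-0.29, adjusted p = 0.596) and Cebpg (0.37, adjusted p = 0.0901) did not pass the test. Of 19 p53 targets, which share Pmaip1 with the stress genes, 10 rose and 0 fell by edgeR's test, with a median of 0.58. These 19 include 1 of the 10 members. Cdkn1a, the cell cycle inhibitor p21, rose by 1.94 (adjusted p = 0.00432) and Plk2 by 1.93 (adjusted p = 1.18e-05). Of 16 immediate early genes, 4 rose and 1 fell, a share of rises close to that of all genes, and their median was -0.41. Myc (1.58, adjusted p = 0.00182), Klf6 (1.52, adjusted p = 0.00529) and Klf4 (1.47, adjusted p = 0.000173) rose, and Nr4a1 was lower (-1.42, adjusted p = 0.0389), but at -0.86 without normal kidney 5, and its call was lost in 11 of those 20 fits. The list of relatives and pathway partners of Trib3, Chac1 and Gdf15 held 7 tested genes. Of these, the glutathione cycle enzyme Ggct fell by 2.26 on the log2 scale (adjusted p = 1.44e-06), with every tumor below every kidney. Trib1 (-0.44), Trib2 (-0.32), Chac2 (-0.06), Oplah (-0.18), Gclc (0.69) and Gclm (0.24) did not pass the test, and Gfral was too low to test.

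**Figure D5:**
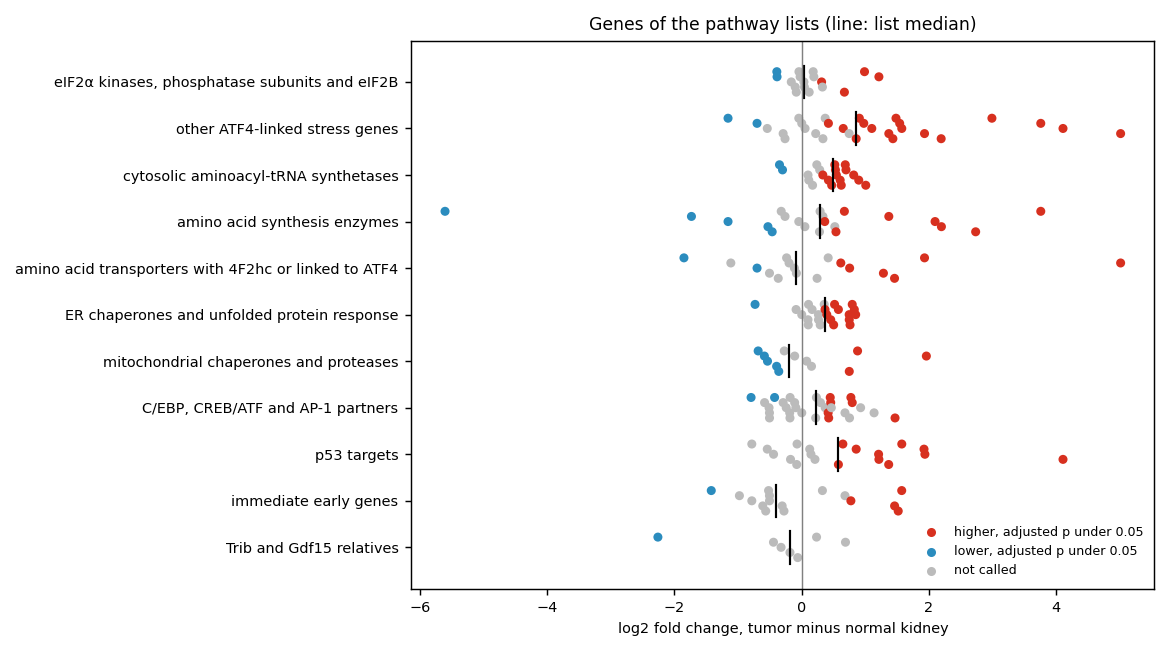
Log2 fold change of tumors against normal kidneys for each tested gene of 11 pathway lists, 1 point a gene, with a line at the list median. Points are red where higher and blue where lower at an adjusted p under 0.05; the genes linked to ATF4 have the highest median (0.86), and Cbs, at -5.61, lies farthest to the left.

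Genes whose levels followed those of the members were ranked by Pearson's r over 20 libraries, after removal of each group's mean, among 13455 protein-coding genes. Closest to Atf4 were Ifrd1 (r = 0.88), Pnrc1, Ier5, Phf23 and Rnd3. Closest to the mean of the other 9 members were Apex1 (r = 0.91), Gch1, Tfe3, Ugdh and Tram1. The points share libraries and scaling, and the kidneys carried more of the likeness than the tumors: for Ifrd1, r was 0.94 over 10 normal kidneys and 0.56 over 10 tumors, and for Apex1 0.98 and 0.48.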

How the data were processed

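The authors isolated RNA from pulverized tissue with Trizol, and poly A-selected libraries were sequenced commercially. They deposited raw read counts per gene, on mm10 per the submitters' processing notes. The aligner, the counter and the use of strand are not given in the sources used here. Counts were analysed with edgeR 4.0.16 in R 4.3.3. Genes were kept by filterByExpr with a count minimum of 10, libraries were scaled by TMM factors, and tumors were compared with normal kidneys by its quasi-likelihood test, with p-values adjusted (Benjamini-Hochberg) across the genes tested. CPM values use the scaled library sizes. Log2 CPM values used a prior count of 2. Library totals were 14737516 to 26679704 counts. Intervals are at 95% confidence. Of 90 pairs of libraries within a group, none agreed within sampling noise (lowest chi-square per degree of freedom 14.2). On simulated counts of 15176 genes for this comparison, the test called 55.1% of genes changed 2-fold and 96% of genes changed 4-fold, and 4.46% of its calls were false. The simulation changed 198 genes, drew the libraries independently and held none that stood apart. Its rates need not hold for the data, where 47.5% of genes were called. The members and the gene lists were chosen with earlier results of these data known. Named list genes are the 3 largest called rises and falls of each list at a mean of at least 1 CPM in either group, all genes of the eIF2 and relatives lists, the partners of Slc3a2 and ATF4, genes overlapping a member, and the 5 genes most like Atf4 or the other members. Single marker genes were named after their values were seen. One marker gene is not reported here. Alternatives were other scalings and filters, DESeq2 1.42.0, limma-voom (limma 3.58.1) without and with quality weights, a replicate block, and left-out libraries. No batch is recorded in the labels. Nothing says whether p-values measure more than the spread between these samples. Promoter sequences are from RefSeq.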

Additional observations from a re-analysis of the deposited data

Results flagged for a closer look

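Of 24 groups of 10 libraries examined (12 measures in both groups), 6 held a library whose distance to its nearest neighbour exceeded Dixon's 95% limit of 0.466 of the group's range, and chance flags about 1 in 20 groups. Among normal kidneys, normal kidney 9 was high in Ddit3 (log2 CPM 4.66, next 3.67), normal kidney 5 in Slc3a2 (log2 CPM 8.77, next 8.23) and normal kidney 7 in Atf5 (log2 CPM 6.12, next 4.91). Among tumors, tumor 7 was high in Slc7a5 (log2 CPM 4.77, next 3.51) and in the log2 ratio of Slc7a5 to Slc3a2 (-3.34, next -4.83), and tumor 9 in Gdf15 (log2 CPM 7.04, next 6.36).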

How the results depend on the processing

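The rises of Ddit3, Atf5, Trib3 and Atf3 and the higher Atf5 to Atf4 ratio kept their direction and their call under each alternative run. No source says that a replicate number marks a pair, though most same-numbered libraries were more alike than libraries of different numbers. Same-numbered libraries correlated at -0.14 to 0.38 in their deviations from the group means, with a median of 0.26 against a mean of -0.02 for different numbers. Of the numbers, 9 of 10 exceeded 0.1, and 5 of 10 kidneys correlated best with their own number. The main fit and the permutation tests of the ratios treated the 20 libraries as independent. The replicate block changed no call of a member, turned Gdf15 to 1.08 (adjusted p = 0.187) and gave 25.9% of all genes as higher. The cause of the following changes was not tested. With limma-voom and quality weights, 10 members were higher (34.8% of all genes): Atf4 0.61, Asns 1.33, Chac1 1.99, Slc7a5 0.43, Slc3a2 0.48 and Gdf15 2.29 joined. In that fit 33 pathway genes were lower, against 21 in the main fit. Over all 15354 genes tested, 5407 were lower, against 3661, so the count of lower genes grew in the background too. Gdf15 was 0.99 with limma-voom and 0.0336 without normal kidney 9 and tumor 7. Without normal kidneys 5, 7 and 8, 8 members were higher, with Atf4 0.51, Asns 1.48, Slc7a5 0.85 and Slc3a2 0.44; Gdf15 was 1.07, and the Slc7a5 to Slc3a2 ratio turned to 0.29 (permutation p = 0.469). Without normal kidneys 5, 7, 8 and 9 and tumor 7, libraries left out after the data were seen, 10 were higher. Atf4 was then at 0.67, Asns 1.37, Chac1 1.99, Slc7a5 0.47, Slc3a2 0.44 and Gdf15 2.62. Slc7a5 turned to -0.052 with upper quartile factors, -0.0557 with library totals and -0.40 without normal kidney 9 and tumor 7.

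With 1 library left out, the number of members higher ranged from 4 to 6. Log2 fold changes ranged from 0.0647 to 0.42 for Atf4, 0.42 to 0.94 for Asns, -0.0564 to 0.64 for Chac1, -0.30 to 0.30 for Slc7a5, 0.26 to 0.40 for Slc3a2 (lowest adjusted p = 0.013), -0.32 to 0.18 for Gdf15, -0.58 to 0.0746 for Cebpb, -0.17 to 0.17 for Chac2, -0.00745 to 0.15 for Eif2b2, -0.12 to 0.0303 for Eif2b4, -0.0865 to 0.0162 for Ppp1r15b and -0.56 to 0.0244 for Slc7a6, and the Slc7a5 to Slc3a2 ratio from -0.36 to 0.0314.

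Chac1, at under 1 CPM in 2 normal kidneys, was the member most limited by depth.

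Genes not called turned sign as follows. With upper quartile factors Ppp1ca was -0.0688 and Eif2b2 -0.0761, and with library totals Ppp1ca -0.0333, Eif2b2 -0.047 and Gcn1l1 -0.0261. Chac2 was 0.12 with limma-voom and 0.0817 with the block. With quality weights Eif2b3 was 0.12, Eif2b4 0.0546, Chac2 0.0719, Oplah 0.12 and Cebpb 0.43. Without normal kidney 9 and tumor 7, Eif2ak1 was 0.00413, Eif2b4 0.0783 and Chac2 0.23. Without normal kidneys 5, 7 and 8, Ppp1r15b was 0.0109, Eif2b3 0.13, Trib1 0.0531, Oplah 0.11, Slc7a6 0.21, Slc7a7 -0.11 and Cebpb 0.0378. Without those 3, normal kidney 9 and tumor 7, Eif2b3 was 0.18, Eif2b4 0.00691, Oplah 0.24 and Cebpb 0.61, which then passed the test.

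Counts moved most in the list of C/EBP, CREB/ATF and AP-1 factors, and the counts over all genes moved too. The 7 rises became 13 without normal kidneys 5, 7 and 8, where 26.6% of all genes were higher against 23.6% in the main fit. They became 13 without normal kidney 5 alone. In the fits that left out 1 library, 3420 to 4052 of all genes were higher, against 3631 in the main fit. With library totals the rises became 3, where 18.6% of all genes were higher. The 2 carriers that fell became 6 without normal kidney 9 and tumor 7, where 4606 of all genes were lower against 3661 in the main fit. They became 1 without normal kidneys 5, 7 and 8, where 4038 of all genes were lower. The 4 eIF2 genes that rose became 9 without normal kidneys 5, 7, 8 and 9 and tumor 7, where 31.4% of all genes were higher.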
